A study of Mus musculus with 8 samples.

Results

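Open chromatin in spermatogonia collected 48 h after retinoic acid (RA) was compared with that in spermatogonia collected before RA, at 0 h, in 4 of the 8 ATAC-seq libraries of the series. The 4 libraries were taken by their labelled timepoint, and they hold 201227 of the 328733 deposited peaks. Peaks of these libraries that shared at least 1 bp were merged into 81391 regions, against 87144 regions when all 8 libraries are merged. Each timepoint had 2 libraries, each from the testes of 1 mouse, so that every comparison rests on 2 animals against 2.

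All mice carried a PIWIL2-eGFP transgene, in which the Piwil2 promoter drives eGFP in germ cells from before birth through early spermatids, and the eGFP-positive cells were sorted from dissociated testes and stored frozen. The labels name C57BL/6 and 129s4/SvJae as the parents of the strain. The 0 h and the 48 h mice alike were fed WIN 18,446, a drug that blocks the synthesis of RA, daily for 7 days from 2 days postpartum. The 0 h mice were then collected without an injection, and their cells correspond to undifferentiated A spermatogonia. The 48 h mice received RA in DMSO into the peritoneum at 9 days postpartum and were collected 48 h later, when the cells correspond to A3 spermatogonia. RA, the DMSO vehicle and about 48 h of age therefore differed together between the groups and cannot be told apart.

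RA is the vitamin A derivative that commits undifferentiated spermatogonia to differentiate. It binds nuclear receptors of the RAR and RXR families at paired copies of a short DNA element, and it is known to induce Stra8 and Kit in these cells. ATAC-seq inserts sequencing adapters where DNA is not wrapped in nucleosomes, so a peak marks accessible DNA, most often a promoter or an enhancer. Peak height is used below as the deposited signal at the peak summit, that is, the coverage by tags extended to a fixed length after the authors had reduced all libraries to 1 common number of tags. The depth behind a peak is known only through this height. In a population of sorted cells, fewer cells with an open site and less signal per cell cannot be told apart.

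The sequences below are those on which the comparison turned, each a window reaching 100 bp to each side of the summit on the plus strand of mm10, read from the RefSeq copy of GRCm38. Capitals mark matches, on either strand, to the motifs searched, all of which are named further on. The first set holds 3 of the 12 largest rises in height among regions with an assigned gene, all of them more than 1000 bp from a TSS.
2410021H03Rik (chr17:69282108-69282308): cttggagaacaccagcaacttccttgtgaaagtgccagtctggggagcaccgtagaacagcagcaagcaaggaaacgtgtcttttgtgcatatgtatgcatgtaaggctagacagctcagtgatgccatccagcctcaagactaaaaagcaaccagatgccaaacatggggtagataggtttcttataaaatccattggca
Nbas (chr12:13586524-13586724): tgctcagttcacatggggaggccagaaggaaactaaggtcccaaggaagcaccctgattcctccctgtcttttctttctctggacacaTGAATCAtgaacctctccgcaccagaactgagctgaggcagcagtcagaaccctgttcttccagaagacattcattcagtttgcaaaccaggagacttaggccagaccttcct
Snx11 (chr11:96770068-96770268): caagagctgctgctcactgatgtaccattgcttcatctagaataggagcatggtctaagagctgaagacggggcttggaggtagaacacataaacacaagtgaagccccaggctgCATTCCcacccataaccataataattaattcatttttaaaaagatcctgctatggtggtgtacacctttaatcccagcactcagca
The second set holds rising regions with a match to the DMRT motif ACATTGT, and a rising region upstream of Stra8, which holds 1 match to the RAR element AGGTCA and 1 to the SP and KLF motif GGGCGG.
Jak1 (chr4:101271932-101272132): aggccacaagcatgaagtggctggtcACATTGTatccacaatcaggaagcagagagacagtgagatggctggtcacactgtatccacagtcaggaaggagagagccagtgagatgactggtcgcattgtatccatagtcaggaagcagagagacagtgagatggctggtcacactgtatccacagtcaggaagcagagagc
Cntfr (chr4:41678388-41678588): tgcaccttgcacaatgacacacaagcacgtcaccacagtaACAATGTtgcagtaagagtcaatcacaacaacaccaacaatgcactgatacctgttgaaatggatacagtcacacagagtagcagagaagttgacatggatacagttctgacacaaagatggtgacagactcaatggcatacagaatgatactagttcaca
Calhm1 (chr19:47144636-47144836): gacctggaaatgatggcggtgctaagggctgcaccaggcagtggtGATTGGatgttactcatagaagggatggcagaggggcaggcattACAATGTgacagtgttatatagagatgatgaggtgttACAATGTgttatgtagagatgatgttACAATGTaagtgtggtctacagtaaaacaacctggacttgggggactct
Stra8 (chr6:34919412-34919612): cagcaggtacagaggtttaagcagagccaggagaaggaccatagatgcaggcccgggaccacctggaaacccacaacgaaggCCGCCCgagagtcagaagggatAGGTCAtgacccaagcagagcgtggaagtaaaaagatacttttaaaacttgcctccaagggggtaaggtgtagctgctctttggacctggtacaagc
The third set holds a pair of the largest falls among regions with an assigned gene, and 2 more falling regions with matches to the NFY motif CCAATC.
Lpar6 (chr14:73231620-73231820): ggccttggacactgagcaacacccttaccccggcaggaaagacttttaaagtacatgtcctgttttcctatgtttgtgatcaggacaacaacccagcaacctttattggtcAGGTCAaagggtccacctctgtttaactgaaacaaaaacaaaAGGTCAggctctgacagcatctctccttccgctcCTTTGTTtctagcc
Rerg (chr6:137147020-137147220): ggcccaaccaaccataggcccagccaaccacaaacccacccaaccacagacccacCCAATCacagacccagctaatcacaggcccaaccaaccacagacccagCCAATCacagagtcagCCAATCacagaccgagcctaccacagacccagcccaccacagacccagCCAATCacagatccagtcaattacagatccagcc
Phactr3 (chr2:178178236-178178436): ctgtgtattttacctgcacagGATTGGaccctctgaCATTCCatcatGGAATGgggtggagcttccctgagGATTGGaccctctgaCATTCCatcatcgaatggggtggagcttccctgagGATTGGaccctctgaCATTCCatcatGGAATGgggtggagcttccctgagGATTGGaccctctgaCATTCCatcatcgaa
Oxr1 (chr15:41515676-41515876): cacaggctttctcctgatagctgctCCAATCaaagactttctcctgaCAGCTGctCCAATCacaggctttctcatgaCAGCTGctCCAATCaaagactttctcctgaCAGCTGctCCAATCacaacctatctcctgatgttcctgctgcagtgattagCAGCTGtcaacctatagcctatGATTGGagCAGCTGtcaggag
The last pair shows a region that was called only at 0 h and one that was called only at 48 h.
Crlf2 (chr5:109551036-109551236): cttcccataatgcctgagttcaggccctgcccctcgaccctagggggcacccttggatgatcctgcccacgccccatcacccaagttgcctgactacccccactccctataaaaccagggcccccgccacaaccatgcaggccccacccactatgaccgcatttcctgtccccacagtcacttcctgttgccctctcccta
Gpr75 (chr11:30888188-30888388): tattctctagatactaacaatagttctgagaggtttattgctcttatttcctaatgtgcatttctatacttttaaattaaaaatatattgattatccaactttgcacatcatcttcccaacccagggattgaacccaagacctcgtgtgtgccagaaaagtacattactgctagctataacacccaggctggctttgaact
The Lpar6 region, which lies in an intron of Rb1, held 2 RAR elements and 1 SOX match. The Rerg, Phactr3 and Oxr1 windows are tandem repeats, since 83.2%, 88.1% and 66.1% of their bases matched the base 16, 50 and 30 bp further on, respectively. Their NFY matches, 4, 4 and 5 in number, are copies within the repeat units. The Jak1 window was also such a repeat, at 81.7% and a step of 48 bp.

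Far fewer peaks were called 48 h after RA than before it. The 0 h libraries had 72215 and 69089 peaks and the 48 h libraries had 25941 and 33982, so that both 48 h libraries lay below both 0 h libraries. The means were 70652 ± 2210 (SD, n = 2) and 29962 ± 5686 (SD, n = 2), a ratio of 0.424. With 2 libraries against 2, an exact two-sided permutation test can give no p below 0.333, which is the value it gave.

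Peaks were also lower at 48 h. The mean signal over the bases in peaks was 92.1 and 107 at 0 h against 70.0 and 71.6 at 48 h, and the bases covered by peaks came to 36.2 and 33.4 Mb against 11.4 and 14.4 Mb. The remaining peaks lay more often at genes. The share within 1000 bp of a transcription start site (TSS) was 21.8% and 23.0% before RA against 44.7% and 37.8% after it, and the share at a CpG island, a GC-rich stretch found at most housekeeping promoters, was 21.3% and 22.5% against 45.7% and 38.0%. Each of these measures separated the groups without overlap, and each gave the same smallest p of 0.333.

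**Figure D1:**
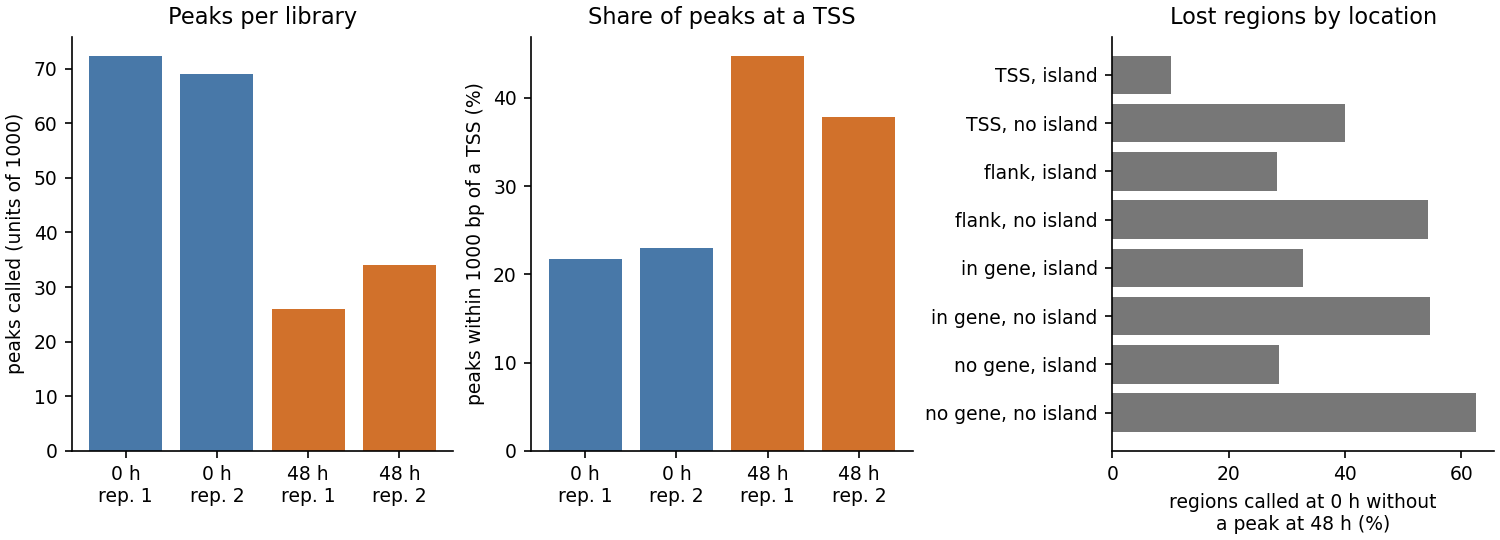
Peaks called per library in units of 1000 (left), the share of each library's peaks within 1000 bp of a TSS in percent (middle), and the share of regions called in both 0 h libraries that had no peak in either 48 h library, by location and CpG island (right). Bars are single libraries in the left and middle panels, without error bars. The 48 h libraries had 25941 and 33982 peaks against 72215 and 69089, and the lost share ran from 1096 of 10911 regions at a TSS with an island to 62.5% away from genes without one.

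A region was called at a timepoint if it held a peak of replicate 1 and one of replicate 2. At 0 h 59192 regions were called and at 48 h 22231. Of the 0 h regions, 21762 were called at 48 h too, 9935 had a peak in 1 of the 48 h libraries, and 27495, or 46.5%, had none and are named lost here. The opposite was rare. Only 185 regions, 0.832% of those called at 48 h, were called there and had no peak at 0 h, and these are named gained. The count of gained regions was set by single libraries, being 366 or 304 without 0 h replicate 1 or 2, 1581 without 48 h replicate 1 and 422 without 48 h replicate 2. Without each library in turn, the lost regions numbered 29632 to 39349.

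Much of the loss concerned low peaks. The median 0 h height of lost regions was 59.5, against 199 for the regions called at both timepoints, and the lowest height deposited in each of the 4 libraries was 25. As described below, the median change in height of shared regions was -1.34 on the log2 scale, a factor of 2.54. A region lower than 63.4 at 0 h that changed by this factor would be below 25, and 15384 lost regions, 56.0%, were that low. Of 20310 regions called at 0 h with a height of at least 127, which the same factor leaves at 50 or more, 1391 were lost, or 6.85%. When each library was cut to its 25941 highest peaks, 2478 regions were lost and 1670 were gained. The excess of lost over gained regions thus shrank but kept its direction under this rule. With a peak in either replicate counted instead, 6369 regions were at 0 h alone and 6653 at 48 h alone, the reverse order.

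Promoters kept their peaks most often. Of the regions called at 0 h within 1000 bp of a TSS, 17.6% were lost, against 52.1% of those within 10 kb outside a gene, 52.3% of those further inside a gene and 61.3% of those without a gene within 10 kb. CpG islands divided the promoters further, with 1096 of 10911 lost at a TSS with an island and 1464 of 3662 at a TSS without one. Among the high regions described above the TSS class again lost the least, 2.21%, but the other 3 classes, taken as above, lost 13.2%, 10.3% and 9.84%, in the reverse order. These shares describe regions of the same 4 libraries and were not tested. Lost regions more often held the motif of CTCF, the factor that anchors chromatin loops, which matched 8.83% of them against 6.42% of all regions called at 0 h and 3.67% of the regions shared by all 4 libraries.

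At the level of genes the change was smaller. The deposited table assigned a called region to 20603 genes at 0 h and to 16532 at 48 h, and 16519 genes had one at both. A further 2234 genes were called at 0 h and had no peak at 48 h, and 4 genes were the reverse. Genes called at both timepoints had a mean of 3.07 called regions at 0 h and 1.67 at 48 h. The genes with the most lost regions also had many at 0 h. Camta1, which encodes a calmodulin-binding transcription activator, had 48 regions called at 0 h and lost 24, and Ctnna3, which encodes an alpha-catenin, lost 22 of 35.

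Among the lost regions with the highest 0 h values, chosen by the lower of the 2 libraries, the region near Crlf2 (chr5:109550999-109551417, intergenic) had heights of 371 and 612 at 0 h and no peak at 48 h. Crlf2 encodes a receptor subunit for thymic stromal lymphopoietin. A region 38685 bp from the start of Tgfbi (chr13:56647997-56648624, intergenic), a TGF-beta-induced matrix protein gene, had 441 and 355 at 0 h and none at 48 h. The Tapbp promoter (chr17:33919328-33919813, untranslated exon), whose product tapasin loads peptides on MHC class I, had 331 and 444 at 0 h and none at 48 h. An intron of Pkm (chr9:59657928-59658437), the pyruvate kinase gene, had 390 and 298 and then none. Regions near 2610002J02Rik (432 and 366) and in Rasl10a (349 and 378) completed this group. Each of these sites had a peak in at least 1 library at 18 h or 120 h. Crlf2 had 290 and 300 in the 120 h libraries of the series, and 2610002J02Rik had 168 and 126. The other sites had a peak in at most 1 library of each of these timepoints. Pkm, for example, had 169 at 120 h and 101 at 18 h.

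The gained regions were lower. Their median height at 48 h was 55.7. The highest lay in an intron of Gpr75, an orphan receptor gene (chr11:30888122-30888497), with no peak at 0 h and 151 and 168 at 48 h. The promoter of Gpsm3 (chr17:34589714-34590092), a modulator of G-protein signalling, had none at 0 h and 142 and 148 at 48 h. Introns of Sema4b, a semaphorin gene (130 and 149), of Ift27, which encodes a component of the intraflagellar transport machinery (122 and 162), and of Nkain2 (112 and 116), and a site near Gm10775 (127 and 144), followed. Each of these 6 had a peak in both 18 h and both 120 h libraries as well. All but Ift27 were between 370 and 390 bp long, as were 34.6% of all gained regions, against 7.63% of lost regions and 1.51% of the 21762 shared ones.

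Heights were then compared in the 21762 regions that had peaks in each of the 4 libraries. As deposited, nearly all of these were lower after RA. Both 48 h heights lay below both 0 h heights in 20913 regions, 96.1%, and above both in 107, 0.492%. The medians of log2 height were 7.54 and 7.76 at 0 h and 6.09 and 6.37 at 48 h. Because the whole distribution shifted, each library was centred on its own median over these regions, and a change below is relative to that median. The mean of the 2 medians fell by 1.42 on the log2 scale, so that a region with a rise under 1.42 was lower as deposited. Changes in centred log2 height were tested with limma, with Benjamini-Hochberg adjustment over all 21762 regions and a threshold of 0.05.

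After centring, 1401 regions (6.44%) rose and 462 (2.12%) fell, against 3329 and 1698 at an unadjusted p under 0.05. The counts rested on the replicates. Without 48 h replicate 1 they dropped to 162 and 11, without 48 h replicate 2 to 479 and 134, and without 0 h replicate 1 or 2 they were 1869 and 462 or 1502 and 681. The median change over all regions was 0.08. The changes were shared by separate pairs of libraries only in part, since the change from 0 h replicate 1 to 48 h replicate 1 and that from 0 h replicate 2 to 48 h replicate 2 had Pearson's r = 0.58 across regions, and the crossed pairs had r = 0.52. Regions are not independent replicates.

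The rises lay mostly among the lowest peaks. In the lowest decile of regions by mean height 615 rose and 0 fell (1147 and 7 at an unadjusted p under 0.05 by limma, 106 and 17 after quantile normalization), and the median change there was 0.55. In the highest decile 15 rose and 16 fell, with a median of 0.02. A region with a low peak at 0 h enters this comparison only if its 48 h peak passed the authors' peak calling too, so low regions that fell further are among the lost ones. A second fit with cyclic loess normalization, which removes a trend of change with height, called 440 regions higher (2.02%) and 275 lower (1.26%). All 440 were among the 1401 and 248 of the 275 among the 462. The rising share of the called regions was 75.2% after median centring, 61.5% after cyclic loess and 55.1% after quantile normalization, and 0.348% with no centring. In the 5866 regions with a mean log2 height of at least 7.5, refitted alone, 62 rose and 75 fell.

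**Figure D2:**
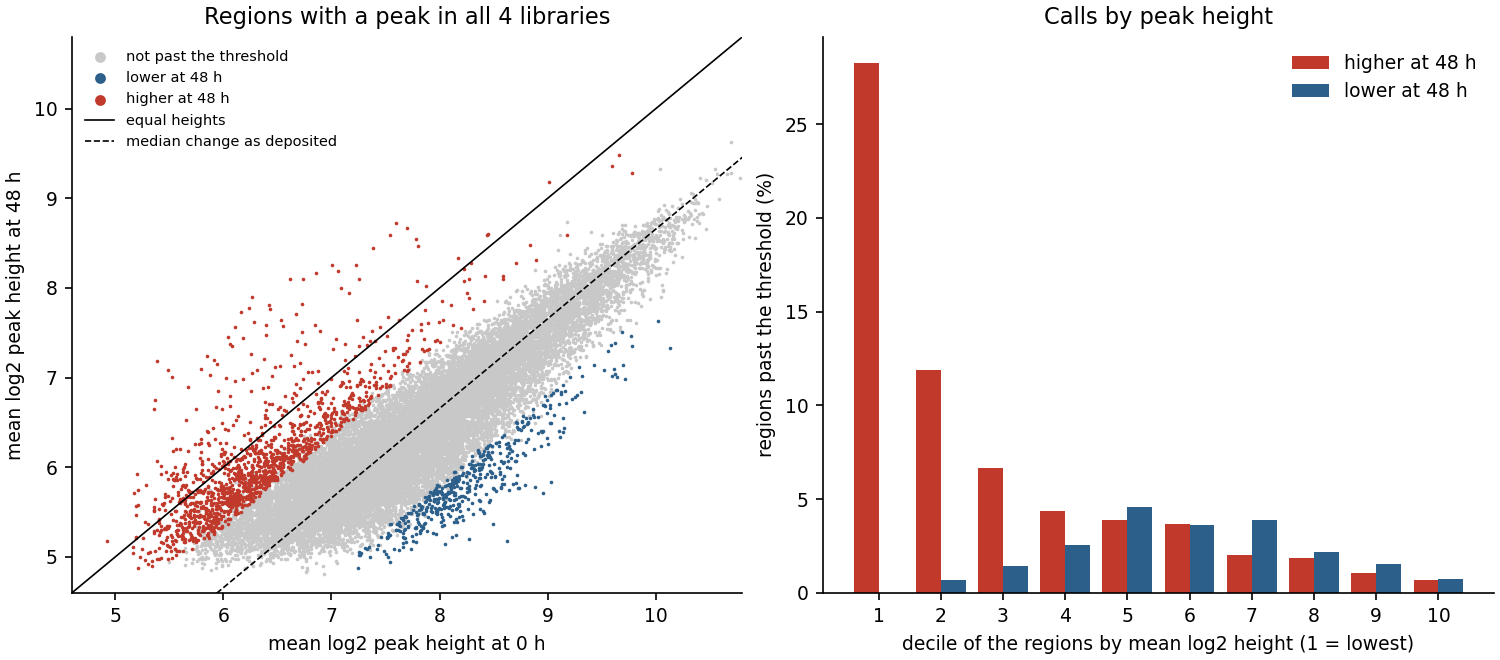
Left, mean log2 peak height at 0 h against that at 48 h, as deposited, for the 21762 regions with peaks in each of the 4 libraries, each point a region; the solid line is equality and the dashed line the median change of -1.34. Right, the share of regions past the threshold in each decile by mean height, which for rises was largest in the lowest decile, where 615 rose and 0 fell.

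Rising and falling regions both lay away from promoters. Of all tested regions 47.0% were within 1000 bp of a TSS, against 20.2% of rising and 12.3% of falling regions. A CpG island was present in 47.7% of tested, 22.3% of rising and 8.23% of falling regions, and the median GC content was 59.2%, 51.7% and 51.2%. By class, 283 of 10224 promoter regions rose and 57 fell, while among the 3908 regions without a gene within 10 kb 373 rose and 198 fell. The sets differed in shape as well. Regions between 370 and 390 bp long made up 154 of the 1401 rising regions, 0 of the 462 falling ones and 1.51% of all tested. Tandem repeats, counted as windows in which at least 60% of bases matched the base 10 to 60 bp further on, made up 70 of the 1401 rising regions and 6.93% of falling regions, against 1.82% of all tested. Windows of which more than 50% was soft-masked as repeat in the genome sequence made up 7.14% of rising, 15.2% of falling and 3.84% of tested regions. The part of repeats, to which short reads can map in several places, in these changes was not tested.

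The 12 largest rises among regions with an assigned gene all passed the threshold after cyclic loess as well, and all were between 370 and 390 bp long. Regions without a gene, 5 of which rose further, by up to 3.21, are not described here. In an intron of Snx11, a sorting nexin gene (chr11:96769991-96770371), the heights were 58 and 57 at 0 h and 160 and 143 at 48 h. This rise was 2.81 ± 0.24 (SE) on the centred log2 scale (limma, adjusted p = 4.06e-05), and both 48 h heights lay above both 0 h heights as deposited. In an intron of Trpc7, a cation channel gene (chr13:56890161-56890540), the heights were 112 and 102 at 0 h and 262 and 285 at 48 h, a rise of 2.77 ± 0.23 (SE; limma, adjusted p = 4.06e-05). The largest rise with an assigned gene, 2.90 ± 0.31 (SE; limma, adjusted p = 0.000139), was in a region assigned to 2410021H03Rik (chr17:69282043-69282423, an intron of Epb41l3), whose heights of 134 and 72 became 250 and 302.

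The Jak1 region, 6718 bp upstream of the gene of a cytokine receptor kinase (chr4:101271850-101272219), had 56 and 80 at 0 h and 135 and 205 at 48 h, a rise of 2.73. Regions near or in Nbas, Itprip, Arl1, Ap1g1, Sparc, Exoc6b, Mapk4 and Myo5b rose by 2.64 to 2.90. Among these, Sparc encodes a secreted matrix protein and Ap1g1 a subunit of the AP-1 clathrin adaptor. In each of these 12 regions both 48 h heights exceeded both 0 h heights as deposited. The 18 h and 120 h libraries, whose comparison shares the same 0 h libraries, had 229 and 209 at 18 h and 361 and 263 at 120 h in Trpc7, and 56 and 148 and then 232 and 180 in Snx11.

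The largest fall was in an intron of Rb1, the retinoblastoma tumour suppressor gene that restrains entry into the cell cycle, at a region also assigned to Lpar6, a lysophosphatidic acid receptor gene nested there (chr14:73231338-73232024). Its heights were 404 and 385 at 0 h and 40 and 33 at 48 h, a fall from among the higher peaks to near the lowest deposited. The centred change was -2.02 ± 0.25 (SE; limma, adjusted p = 0.000411). At 18 h the same region had 55 and 76, and at 120 h 49 in 1 library and no peak in the other.

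Rerg, which encodes a RAS-like inhibitor of growth, had 476 and 517 at 0 h and 36 and 77 at 48 h in an intronic region (chr6:137146814-137147565), a change of -1.82 ± 0.27 (SE; limma, adjusted p = 0.0015). In an intron of Erg, an ETS-family transcription factor gene (chr16:95504119-95504718), the heights went from 382 and 323 to 53 and 45, a change of -1.43. Other regions of the 12 largest falls with an assigned gene, at Dera, Agpat5, Aaed1, Zdhhc14, Appl1, Phactr3, Oxr1 and Veph1, changed by -1.65 to -1.35. In all 12 both 48 h heights lay below both 0 h heights as deposited, but so they did in 96.1% of all tested regions. None of the 12 lay within 1000 bp of a TSS. Without 48 h replicate 1 or 2, a fit on 3 libraries, 10 of the 12 missed the threshold under one or the other, with the same direction.

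The motif content of the 2 sets differed in a few motifs among the 22 searched on both strands of these windows. Away from promoters, the DMRT motif ACATTGT, the core bound by DMRT1 and its relatives, which govern the choice between mitosis and meiosis in male germ cells, matched 26.1% of rising, 9.88% of falling and 19.6% of all tested regions. The NFY motif CCAATC, the CCAAT box of many promoters, went the other way, with 5.90% of rising, 34.8% of falling and 13.6% of tested regions. The FOX motif TGTTTAC matched 1.97%, 9.38% and 3.48%. Without the tandem repeats the values were close, with DMRT at 26.1%, 10.5% and 19.7%, NFY at 6.09%, 34.0% and 13.7% and FOX at 2.09%, 10.2% and 3.59%.

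The share of regions that moved followed the number of NFY matches. Of 9971 tested regions away from promoters with no NFY match 2.65% fell, of 1188 with 1 match 6.82%, and of 379 with 2 or more 15.8%, with median changes of 0.07, -0.12 and -0.36. After cyclic loess the falling shares were 1.65%, 3.62% and 9.50%. Median log2 height also increased with the number of matches, at 6.62, 6.82 and 7.17. The classes were not matched by height, and tandem repeats were not left out of these counts. For DMRT, 8.91% of 9269 regions without a match rose, 12.8% of 1844 with 1 match and 13.2% of 425 with 2 or more, but the medians were 0.02, 0.12 and -0.01, so the medians did not follow the number of matches. RAR elements, AGGTCA, matched 13.3% of rising and 65 of the 405 falling regions away from promoters, against 11.1% of all tested there. The direct repeats of this element with 5 or 2 bases between, at which RAR and RXR bind as a pair, matched 0.0230% and 0.00460% of tested regions, too few to compare. GC-box matches of the SP and KLF motif GGGCGG, frequent at island promoters, were in 18.8% of tested, 7.42% of rising and 65 of the 405 falling regions away from promoters.

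The other motifs searched were AACAAAG for the SOX factors, AGATAA for the zinc finger factors of the GATA family, ATGCAAAT as the POU octamer, GCGCATGC for NRF1, CCGGAA for the ETS factors, TGACGTCA as the cyclic AMP response element, TGANTCA for AP-1, CACGTG as the first E-box, CAGCTG as the other E-box, CNCCTCAG for STRA8, GGAATG for the TEAD factors, GCGGGAA for the E2F factors, AANATGGC for YY1, and the motifs of RFX and CTCF. Away from promoters AP-1 matched 7.42% of rising, 9.14% of falling, 6.03% of tested and 11.8% of gained regions. The element CNCCTCAG, bound by STRA8, matched 5.55%, 6.42% and 5.64% of rising, falling and tested regions there, which are close to one another. A match is a string of letters in a window and no evidence of binding, matches of different motifs can overlap, and the shares were not tested.

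**Figure D3:**
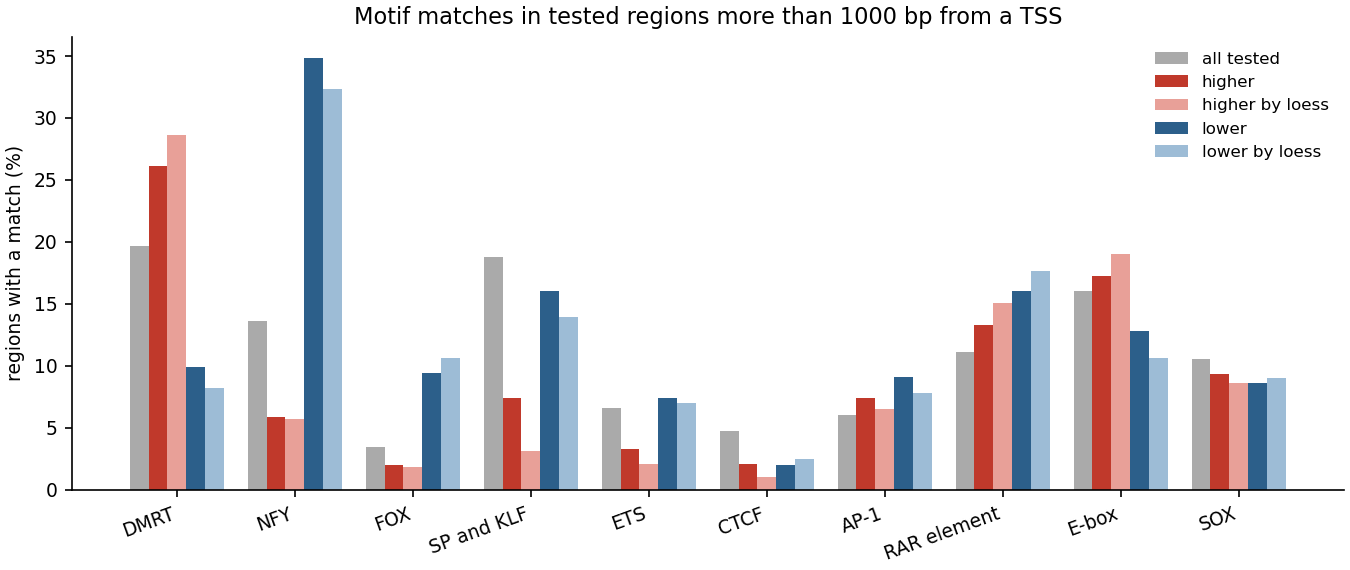
Share in percent of tested regions more than 1000 bp from a TSS with at least 1 match to each of 10 motifs in the window around the summit, for all tested regions and for those that rose or fell after median centring or cyclic loess (E-box stands for CAGCTG). DMRT matches were more frequent in rising regions (26.1%) and NFY matches in falling regions (34.8%) than in all tested (19.6% and 13.6%).

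Markers of the sorted cells were checked at their promoters. Dazl, Ddx4 and Piwil2, which encode germ cell RNA-binding, helicase and PIWI proteins, had a promoter peak in all 4 libraries. Piwil2 had heights of 1073 and 1009 at 0 h and 331 and 647 at 48 h, but copies of its promoter in the transgene give the same reads. Of 15 germ cell markers, 14 and 13 had a promoter peak at 0 h and 12 and 11 at 48 h, with summed heights of 3836 and 4867 against 1473 and 1988. Sertoli cell markers had 11 and 10 of 15 against 7 and 8, with summed heights of 1742 and 2095 against 592 and 725, and peritubular myoid markers 7 and 7 of 7 against 2 and 3, with 711 and 809 against 124 and 236. Endothelial markers had 4 and 4 of 8 against 2 and 1, with summed heights of 371 and 494 against 90 and 72. Macrophage markers had 3 and 2 of 9 (240 and 198) and Leydig markers 1 and 1 of 9 (74 and 77) at 0 h, and neither list had a promoter peak at 48 h. The summed heights of the germ cell and all 5 somatic lists were thus lower at 48 h, and each somatic list was lower by a larger factor than the germ cell list. The markers of undifferentiated spermatogonia, also germ cells, were lower by a larger factor too, with 7376 and 8245 against 1975 and 2495. A promoter without a called peak adds nothing to these sums, so lists of low peaks can drop to 0. The part of these cell types in the differences was not tested.

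Regions of Kit, Stra8 and Ccnd2 rose among the regulators of differentiation. Of 27 tested regions of 17 such genes, 4 rose and 0 fell (8 and 1 at an unadjusted p under 0.05). The rising share was 14.8%, beside 6.44% of all tested regions, of which 2.12% fell, and all 4 also rose after cyclic loess. Their median change was 0.29, beside 0.08 over all tested regions. Kit encodes the receptor for stem cell factor, a receptor that differentiating spermatogonia need. Its promoter (chr5:75574599-75575313) had heights of 96 and 144 at 0 h and 127 and 142 at 48 h. As deposited the groups overlapped, with a change of 0.19, and relative to the falling median the region rose by 1.61 ± 0.23 (SE; limma, adjusted p = 0.00121). Of 3 Kit regions called at 0 h, 2 were lost, with 0 h heights of 68 and 36 and of 38 and 64.

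Stra8, induced by RA and required for the entry into meiosis, behaved alike at a pair of sites. The promoter region (chr6:34920631-34921059, summit 128 bp upstream) had 123 and 159 at 0 h and 165 and 168 at 48 h, and rose by 1.67 ± 0.22 (SE; limma, adjusted p = 0.000817). The region 1440 bp upstream (chr6:34919342-34919702) had 64 and 65 at 0 h and 98 and 75 at 48 h, and rose by 1.83 ± 0.26 (SE; limma, adjusted p = 0.00108). In both regions the 48 h heights lay above both 0 h heights as deposited. The region 1440 bp upstream had no peak in the 18 h and 120 h libraries of the series. Of 6 Stra8 regions called at 0 h, 3 were lost. A region 32872 bp from the start of Ccnd2, which encodes the D-type cyclin that rises in differentiating spermatogonia, had 133 and 114 at 0 h and 79 and 112 at 48 h and rose by 1.03, although it was lower by 0.39 as deposited. Another Ccnd2 region, 1528 bp upstream, had 239 and 254 at 0 h and was lost. Without 48 h replicate 1 each of these 4 rises missed the threshold, with the Kit change at 1.5 (adjusted p = 0.0655).

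Other regulators did not pass the threshold. The Dmrt1 promoter had 406 and 476 at 0 h and 216 and 235 at 48 h, a change of 0.45 (limma, adjusted p = 0.235). The promoters of Sohlh1 and Sohlh2, which encode bHLH factors of early differentiation, changed by 0.31 and -0.16, and Dnmt3b, which encodes a de novo DNA methyltransferase, by 0.62 (limma, adjusted p = 0.0997).

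Markers of undifferentiated spermatogonia had 62 tested regions of 33 genes, of which 1 rose and 3 fell (3 and 10 at an unadjusted p under 0.05). These are 1.61% and 4.84%, beside 6.44% and 2.12% of all tested regions. The change was under 0 in 64.5% of them and in 42.0% of all, and the median was -0.12. Ptch1 encodes the hedgehog receptor. A region 2448 bp upstream of it (chr13:63567739-63568322) had 622 and 982 at 0 h and 105 and 177 at 48 h, a change of -1.10 ± 0.25 (SE; limma, adjusted p = 0.0162), and its promoter region 848 bp upstream went from 214 and 328 to no peak. An intronic region of Pax7, a marker of rare stem-like spermatogonia, went from 366 and 253 to 63 and 51, a change of -1.01. The promoter of Egr4, a zinc finger factor gene, went from 480 and 357 to 73 and 86, a change of -0.97. The Pax7 and Egr4 falls were not past the threshold after cyclic loess (adjusted p = 0.0923 and 0.0714).

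Lin28a, which encodes a blocker of let-7 maturation, had 1 region that rose, with 73 and 68 at 0 h and 56 and 68 at 48 h. That region rose by 1.23 relative to the median and was lower by 0.19 as deposited. Ret, Id4, Etv5 and Gfra1, genes of the GDNF response that maintains the stem cell pool, had no tested region past the threshold. Near the start of Ret, the GDNF receptor kinase gene, a region went from 267 and 302 to 50 and 87, a change of -0.69 (limma, adjusted p = 0.095). Id4 and Etv5 promoters changed by -0.48 and -0.26. Gfra1, the GDNF co-receptor gene, had 17 regions called at 0 h, of which 10 were lost and 3 were called at 48 h. All 3 called regions of Nanos3, which encodes an RNA-binding repressor of germ cells, were lost, among them its promoter at 191 and 107, and 5 of 7 of Zfp462. Over the list 42.9% of called regions were lost, near the 46.5% of all regions.

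**Figure D4:**
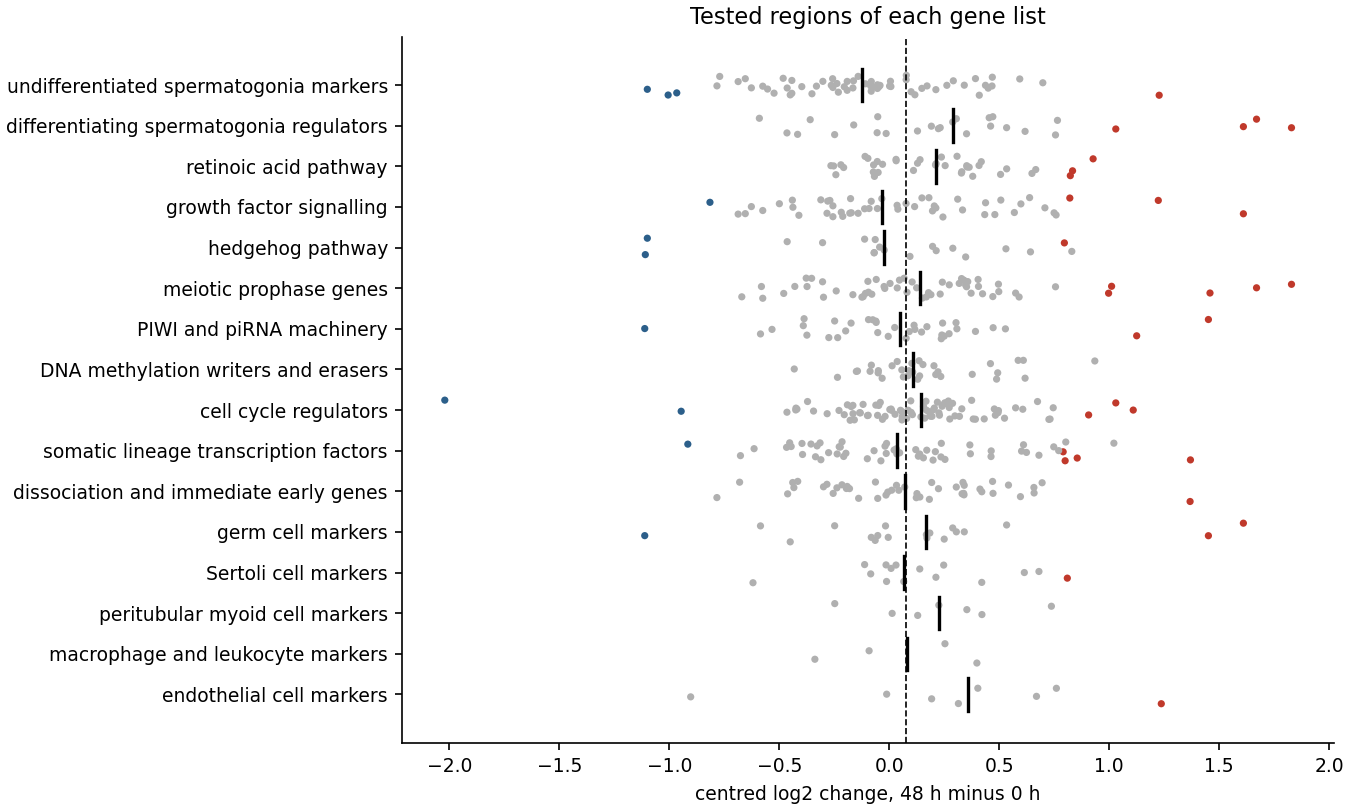
Centred log2 change in height from 0 h to 48 h (horizontal axis) for every tested region of 16 gene lists (rows, with points spread vertically at random). Red and blue points rose or fell past the threshold, black bars are list medians and the dashed line is the median of all tested regions, 0.08. The rightmost points, at 1.61 to 1.83, are Stra8 and Kit regions, which stand in the differentiating row and again in the meiotic (Stra8), growth factor and germ cell (Kit) rows. The differentiating median is 0.29, the endothelial one, over 8 regions, 0.36 and the undifferentiated one -0.12.

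Genes of the RA pathway itself moved about as often as all regions. Of 38 tested regions of 19 genes, 3 rose and 0 fell (6 and 0 at an unadjusted p under 0.05), a rising share of 7.89% beside 6.44% overall. None did after cyclic loess, quantile normalization giving 0 and 0 also. The 3 were low peaks at Ncor1, a corepressor gene (87 and 87, then 57 and 59), at the promoter of Rbp4, the retinol carrier gene (73 and 89, then 62 and 53), and downstream of Aldh1a3, a retinal dehydrogenase gene (66 and 97, then 51 and 55). Each was lower at 48 h as deposited, by 0.49 to 0.60, and each rose by 0.82 to 0.93 after centring. The promoter of Rara, an RA receptor gene, had 307 and 376 at 0 h and 128 and 117 at 48 h, a change of -0.05. The median of the list was 0.21, beside 0.08 overall. Of 95 regions called at 0 h 44.2% were lost, beside 46.5% of all, including 5 of 6 at Rxrg and 4 of 6 at Rarg.

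In signalling downstream of growth factors, Kit, the ERK inhibitor gene Spred1 and the ERK1 gene Mapk3 rose and Shc1, an adaptor gene, fell, out of 51 tested regions, with a median of -0.03. The rising and falling shares, 5.88% and 1.96%, were near the 6.44% and 2.12% of all tested regions. The Spred1 promoter had 61 and 65 at 0 h and 55 and 55 at 48 h, a rise of 1.22 that was lower by 0.20 as deposited, and Mapk3 had 114 and 173 and then 87 and 99, a rise of 0.82 that was lower by 0.60 as deposited. Only Kit was called after cyclic loess. In the hedgehog pathway the promoter of Gas1, a coreceptor gene, went from 358 and 355 to 67 and 57, a change of -1.11 ± 0.24 (SE; limma, adjusted p = 0.0141). With the Ptch1 region it made 2 falls among 19 tested regions, 10.5% beside 2.12% of all, and both also fell after cyclic loess. An intronic Shh region rose by 0.80 after centring and was lower by 0.62 as deposited, and it was not called after cyclic loess.

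Meiotic prophase genes lost 23.5% of 85 regions, beside 46.5% of all and 17.6% of those within 1000 bp of a TSS. The lists were not matched to all regions by location. Of 56 tested regions 5 rose and 0 fell (9 and 2 at an unadjusted p under 0.05), with a median of 0.14. The rising share, 8.93%, was near the 6.44% of all tested regions. The 5 were both Stra8 regions, counted above among the regulators of differentiation, the promoter of the cohesin gene Smc1b (87 and 83, then 72 and 57), a region upstream of the synaptonemal complex gene Sycp2 (84 and 90, then 68 and 62) and one downstream of the mismatch repair gene Mlh3 (60 and 44, then 45 and 62). Smc1b and Sycp2 were lower by 0.41 and 0.42 as deposited, and only the Stra8 regions were called after cyclic loess.

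Among PIWI pathway genes, a region inside Tdrd1, which encodes a Tudor protein of piRNA granules, went from 403 and 364 to 61 and 72, a change of -1.11 ± 0.23 (SE; limma, adjusted p = 0.0103). Regions downstream of Piwil2 (62 and 58, then 53 and 71) and Piwil4 (54 and 61, then 51 and 43) rose by 1.45 and 1.13, and the Piwil4 region was lower by 0.29 as deposited. The list had 36 tested regions and a median of 0.05. Of these 5.56% rose and 2.78% fell, near the 6.44% and 2.12% of all tested regions.

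Cell cycle regulators lost 18.5% of 130 regions, beside 46.5% of all and 17.6% of those within 1000 bp of a TSS. They had 83 tested regions, with a median of 0.14. Of these 3.61% rose and 2.41% fell, beside 6.44% and 2.12% of all tested regions. Besides the Rb1 intron, the promoter of the cyclin gene Ccnd3 fell, from 370 and 427 to 64 and 93, a change of -0.95 ± 0.22 (SE; limma, adjusted p = 0.0191). A second Ccnd3 region 6149 bp inside the gene had 80 and 105 and then 59 and 70 and rose by 0.91 after centring, lower by 0.51 as deposited. The promoter of Rbl1, which encodes the Rb relative p107, had 93 and 119 at 0 h and 89 and 81 at 48 h and rose by 1.11, lower by 0.31 as deposited. An intronic E2f7 region was gained, with 35 and 47.

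DNA methylation writers and erasers, among which Dnmt3a and Dnmt3b act in the male germline, had 33 tested regions of 18 genes. None rose or fell by limma, beside 6.44% and 2.12% of all tested regions, and the median was 0.11. At an unadjusted p under 0.05 by limma 5 rose and 0 fell. The counts were 0 and 0 after quantile normalization and 1 and 0 with the replicate block. Transcription factors of somatic lineages lost 54.4% of 250 regions, beside 46.5% of all. Of their 56 tested regions 4 rose, at Myf5, Sox11, Runx2 and Pax8, and 1 fell, in Sox6 (156 and 188, then 36 and 32, a change of -0.92). Their rising share of 7.14% was near the 6.44% overall. The 4 had heights of 32 to 86 in all 4 libraries and none was called after cyclic loess, where the Myf5 change was -0.03. A region upstream of Fosb, an immediate early gene, had 95 and 214 and then 117 and 162 and rose by 1.37, the single call among 45 tested regions of genes induced by cell dissociation. The rising share there was 2.22%, beside 6.44% of all tested regions.

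**Figure D5:**
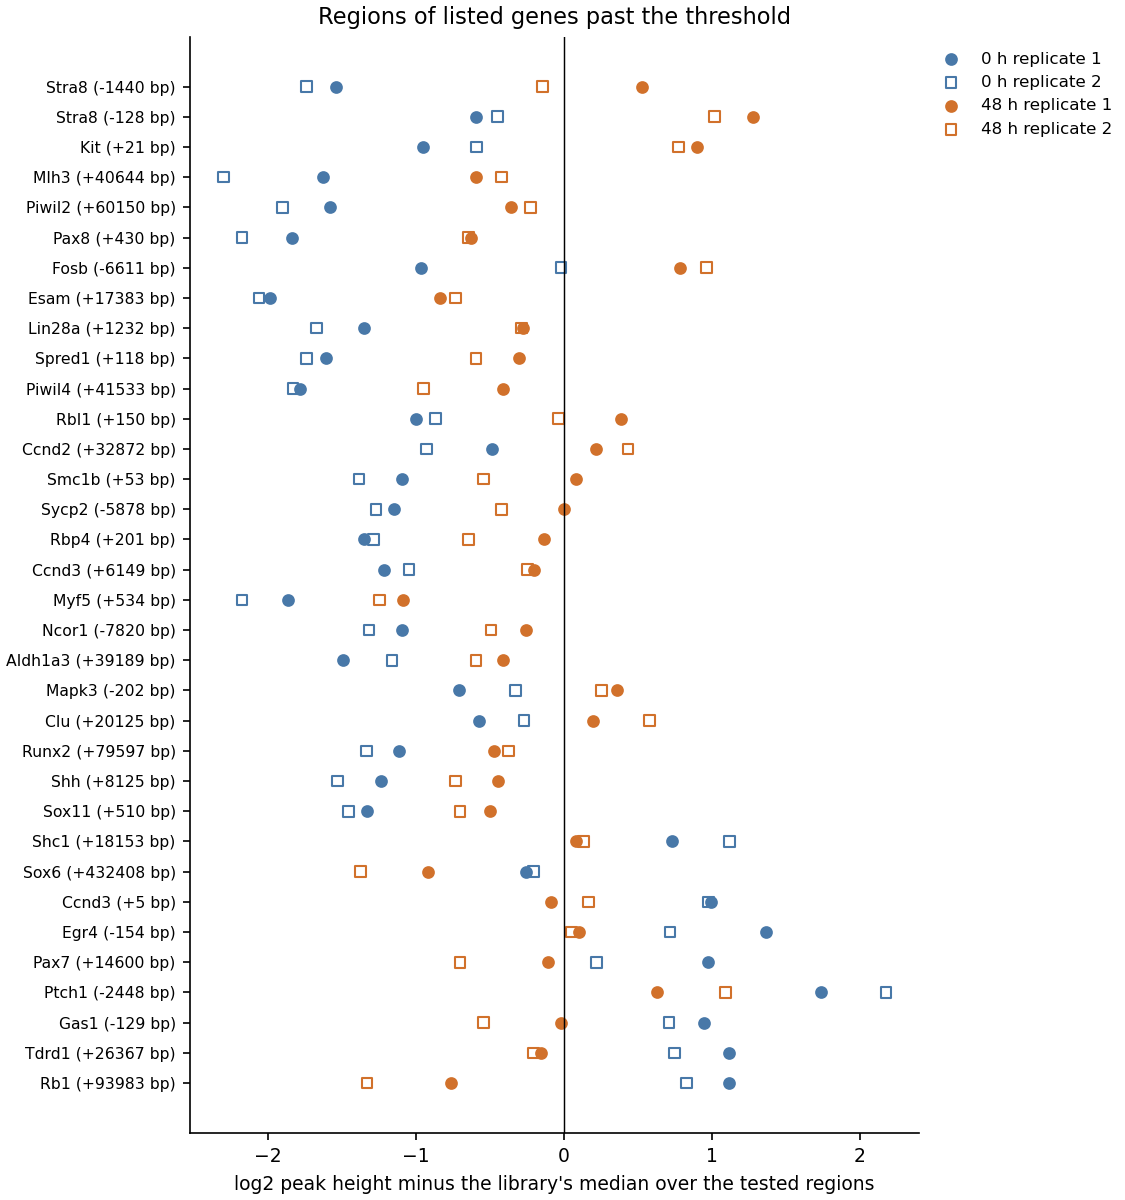
Centred log2 peak height (horizontal axis) in each of the 4 libraries for the regions of listed genes past the threshold, ordered by change, with the distance of the summit from the start of the gene in brackets. Circles are replicate 1 and squares replicate 2, blue for 0 h and orange for 48 h. The Stra8 regions and Kit are at the top with rises of 1.61 to 1.83 and the Rb1 intron at the bottom with -2.02.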

How the data were processed

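Accessible DNA of sorted eGFP-positive germ cells was read by ATAC-seq. Per the labels and the study's methods, the authors aligned reads to mm10 with BWA 0.7.12, removed duplicates, reduced all libraries to 1 number of tags, and called peaks per library with MACS2 2.1.0 without a control. The deposited table gives each peak's signal, as coverage at the summit and as a mean over the peak, with its genes. Equal tag numbers mean that signal outside peaks lowers signal inside them. Read counts per region were not analysed here, so no count test was made.

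Peaks of the 4 libraries overlapping by 1 bp were merged. A library's height in a region was its highest summit signal. Regions that had peaks in each of the 4 libraries entered the height test. Their log2 heights, less the median of the library, were fitted with limma 3.58.1 (lmFit, eBayes) in R 4.3.3. Calls had a Benjamini-Hochberg adjusted p under 0.05. Counts per library were compared with exact permutation tests in Python 3.11.15. The fit was tested on simulated data. Distances, CpG islands and genes are those of the deposited table, features at summits are from GENCODE vM21, and motifs were searched in windows reaching 100 bp to each side of the summit. Named regions were the 12 largest rises and 12 largest falls with a gene, 6 lost and 6 gained regions by their lower library, and listed genes with a called region. A gene of 1 list and a region among the falls are not reported here. The DMRT, NFY and Stra8 sequences, and other members named with values, were chosen after their values were seen. The members and lists were chosen with earlier results of these data known. The labels name 2 replicates and the methods 1 mouse each. The labels and the methods give different strain backgrounds and cell numbers. Same-numbered libraries did not deviate together (r = 0.088 across regions).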

Additional observations from a re-analysis of the deposited data

How the results depend on the processing

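The ratio of peak numbers kept its direction in all alternatives run. Lost regions numbered 46587 and gained regions 1803 when a peak in either replicate counted, 2478 and 1670 with equal numbers of highest peaks, and 1391 lost regions stayed at 50 or more after the median change. With windows around the summits 643 regions were gained. Leaving out a library gave 304 to 1581 gained and 29632 to 39349 lost regions. For heights, rises and falls numbered 71 and 20332 with no centring, 134 and 18519 centred on the median of all peaks, 440 and 275 after cyclic loess, 506 and 235 in the regions of all 8 libraries, 62 and 75 at a mean log2 height of at least 7.5, 59 and 73 there with cyclic loess and 200 and 208 with equal numbers of highest peaks. Rises numbered 468 after quantile normalization, and falls 738 with the mean signal of the peak. As deposited in every pair of libraries, 107 rose. Leaving out a library gave 162 to 1869 rises and 11 to 681 falls, and leaves 1 library assumed to vary like the other group. The replicate block, in which the numbers share only a label (r = 0.088, not a pairing by the design), gave 2216 rises and 925 falls, and it ended the call of 0 of 57 named regions. The share of rising regions near a TSS was 25.7% at a limit of 3000 bp, 12.7% after cyclic loess and 22.6% at high height, and of falling regions 21.3% at high height.

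With no centring the changes of rising regions turned to -0.19 at Lin28a, -0.39 at Ccnd2, -0.59 at Ncor1, -0.49 at Rbp4, -0.60 at Aldh1a3, -0.20 at Spred1, -0.60 at Mapk3, -0.62 at Shh, -0.41 at Smc1b, -0.42 at Sycp2, -0.29 at Piwil4, -0.51 at Ccnd3, -0.31 at Rbl1, -0.56 at Myf5, -0.63 at Sox11, -0.62 at Runx2, -0.049 at Pax8, -0.051 at Fosb, -0.61 at Clu and -0.18 at Esam, by the construction of the alternative. Centred on all peaks they were -0.064 at Ccnd2, -0.26 at Ncor1, -0.17 at Rbp4, -0.27 at Aldh1a3, -0.27 at Mapk3, -0.30 at Shh, -0.083 at Smc1b, -0.10 at Sycp2, -0.19 at Ccnd3, -0.24 at Myf5, -0.30 at Sox11, -0.29 at Runx2 and -0.28 at Clu. After cyclic loess Myf5 was at -0.031. Of the 57 named regions, 37 were still past the threshold in the same direction after cyclic loess and 39 after quantile normalization. Most of the 57 missed it without 48 h replicate 1, a fit with 1 library at 48 h. Only 2 libraries per timepoint and the unknown depth limit these comparisons.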
